A study of Mus musculus with 4 samples.

Results

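Tiles of medium CpG density are 1 kb stretches of the mouse autosomes that hold 20 to 39 CpGs. They were cut on a fixed grid from the start of each chromosome, and a tile was taken when 20 to 39 CpGs were listed in at least 1 of 4 whole-genome bisulfite sequencing (WGBS) libraries and 3 or more of them had at least 5 reads in every library. Those CpGs are called used CpGs. The rule found 88649 tiles among 1863069 tested autosomal tiles, or 4.76%, and they held 10.9% of the used CpGs in tested tiles. A further 2567 tiles with 20 to 39 listed CpGs had fewer than 3 used CpGs and carried no value. Methylation levels played no part in the choice. The members held a median of 23 listed and 18 used CpGs. Most lay near the lower edge of the class, with 62.6% holding 20 to 24 CpGs and 5.28% holding 35 to 39.

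Bisulfite converts unmethylated cytosines, and the methylation level of a CpG is the percentage of its reads in which the C is kept. The method does not tell 5-methylcytosine from 5-hydroxymethylcytosine, the first product of TET enzymes, so a level is the sum of both. Each library came from the brain of 1 male embryo at E11.5, in mid-gestation, of the inbred 129S6.Cg strain carrying the Tet1 tm1Koh allele, which had been brought onto 129S6 from C57BL/6 by repeated backcrossing. The 4 groups were Tet1 knockout (KO) and wild type (WT) embryos of Tet1 HET dams fed excess folic acid (FA; 30 ppm), and KO and WT embryos of HET dams fed control FA (3 ppm). Both diets were custom semi-purified feeds that contained the antibiotic succinylsulfathiazole, so these groups share the antibiotic as well as a heterozygous mother. With 1 library per group no value has an SD, no difference has a replicate check, and every test on reads compares 2 libraries, not 2 conditions. The knockout was not limited to a cell type, and whole brains hold many cell types, so a level is an average over them. The embryo numbers in the titles name a separate pregnancy for each embryo. By the same numbers, the study's list of embryos used for reduced-representation bisulfite sequencing records a neural tube defect (NTD) in the KO embryo of each diet and a normal WT embryo of each. Each KO versus WT difference is thus also one of NTD against normal and of separate litters, and these cannot be told apart from genotype. Each diet difference is also one between litters.

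TET1 is a dioxygenase that oxidises 5-methylcytosine, a first step towards its removal, and its CXXC domain favours CpG-rich DNA. FA feeds the one-carbon cycle that supplies the methyl groups for DNA methylation. Most CpGs of a mammalian genome are methylated and lie sparsely. CpG islands are dense and mostly unmethylated, and stretches of medium density, island shores and weak CpG promoters among them, lie between these states and often vary in level from tissue to tissue. The comparisons below ask how the level of such stretches differed with the loss of Tet1 and with the amount of FA in the diet.

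Sequencing covered a listed autosomal CpG with a mean of 13.2 reads in KO and 14.3 in WT for the 30 ppm libraries, and 21.2 and 16.2 for the 3 ppm libraries. A member tile held a median of 206, 226, 350 and 258 reads in the same order, summed over its used CpGs, against 93, 100, 152 and 115 for all tested tiles. A read is counted at each CpG it covers. Mitochondrial CpGs, which are taken as unmethylated, read 0.914% to 0.938% methylated in the 4 libraries, so incomplete conversion was low and alike. The deepest library, KO at 3 ppm, takes part in 2 of the 4 comparisons.

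The sequences of 6 member tiles are shown because they stand at the ends of the KO versus WT comparison. The tiles at Rasa2, Nphs1 and Tmem233 are among the 10 named further on for the largest KO excess at both diets. The tiles at Gm7247, at Gm11620 and near Vpreb2 are the 3 members that were called lower in KO at both diets. Each run is the 300 bases of the tile that hold the most CpGs, read from the plus strand of GRCm38.p6, with every CG in capitals. The tile at Trim58, first of the 10, is not printed because its densest window overlaps a UTR.
Rasa2 (chr9:96544039-96544338): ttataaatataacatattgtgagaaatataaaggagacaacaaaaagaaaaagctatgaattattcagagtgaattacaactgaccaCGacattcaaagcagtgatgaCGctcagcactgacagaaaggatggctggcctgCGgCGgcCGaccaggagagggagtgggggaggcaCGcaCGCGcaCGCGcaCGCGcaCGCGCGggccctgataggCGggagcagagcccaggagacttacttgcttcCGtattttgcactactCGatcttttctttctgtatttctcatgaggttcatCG
Nphs1 (chr7:30460419-30460718): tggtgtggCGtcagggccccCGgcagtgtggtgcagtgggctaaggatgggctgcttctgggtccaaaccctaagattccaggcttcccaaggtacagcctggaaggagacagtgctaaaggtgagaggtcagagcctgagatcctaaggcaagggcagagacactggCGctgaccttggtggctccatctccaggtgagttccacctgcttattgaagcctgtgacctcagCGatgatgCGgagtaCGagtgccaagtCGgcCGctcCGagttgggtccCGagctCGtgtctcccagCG
Tmem233 (chr5:116082678-116082977): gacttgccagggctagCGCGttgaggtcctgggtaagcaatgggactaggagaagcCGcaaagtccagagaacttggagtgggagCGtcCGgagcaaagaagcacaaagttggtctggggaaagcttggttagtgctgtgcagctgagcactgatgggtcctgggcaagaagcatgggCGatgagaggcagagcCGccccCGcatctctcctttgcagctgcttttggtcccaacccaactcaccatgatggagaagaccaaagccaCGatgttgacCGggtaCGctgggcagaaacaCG
Gm7247 (chr14:51434701-51435000): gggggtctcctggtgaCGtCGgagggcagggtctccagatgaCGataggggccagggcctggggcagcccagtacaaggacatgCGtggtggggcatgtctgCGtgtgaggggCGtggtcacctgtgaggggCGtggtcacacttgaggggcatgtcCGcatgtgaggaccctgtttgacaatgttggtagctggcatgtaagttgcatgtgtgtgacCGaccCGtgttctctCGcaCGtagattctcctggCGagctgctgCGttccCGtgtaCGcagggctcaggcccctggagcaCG
Gm11620 (chr11:105164680-105164979): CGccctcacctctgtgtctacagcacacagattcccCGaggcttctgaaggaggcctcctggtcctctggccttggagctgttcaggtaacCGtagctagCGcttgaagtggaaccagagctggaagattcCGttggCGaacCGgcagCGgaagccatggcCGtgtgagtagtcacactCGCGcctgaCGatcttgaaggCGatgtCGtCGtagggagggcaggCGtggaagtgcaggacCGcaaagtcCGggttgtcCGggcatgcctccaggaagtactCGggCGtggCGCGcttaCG
Near Vpreb2 (chr16:18012153-18012452): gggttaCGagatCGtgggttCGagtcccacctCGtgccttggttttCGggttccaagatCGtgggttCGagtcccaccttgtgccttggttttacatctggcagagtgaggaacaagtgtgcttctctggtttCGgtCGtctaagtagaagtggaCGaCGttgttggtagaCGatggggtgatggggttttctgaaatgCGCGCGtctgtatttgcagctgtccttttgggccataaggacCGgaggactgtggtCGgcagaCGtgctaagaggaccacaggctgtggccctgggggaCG
The windows hold 19, 12, 12, 17, 24 and 19 CGs in this order. They were chosen by number of CGs, and not every CG in them is a used CpG. In the Gm7247 tile 13 of 31 listed CpGs were used, and those from base 325 to base 460 of the tile lie outside its window. In the middle of the Rasa2 window lies a run of closely packed CGs broken by CA.

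Levels of the medium tiles were mostly high, with a tail down to near 0. The median tile was methylated at 89.3% in KO against 86.9% in WT at 30 ppm, and at 89.1% in KO against 87.4% in WT at 3 ppm. Means were lower, at 78.2%, 74.1%, 77.8% and 74.6%, since 6.72% of tiles in KO and 9.39% in WT at 30 ppm lay under 20%. At 3 ppm these shares were 6.78% in KO and 9.28% in WT. Tiles at 80% or more made up 71.1% and 70.9% of the members in the KO libraries, and 64.3% and 65.2% in the WT libraries. Both KO libraries thus had fewer tiles at the low end and more at the high end than both WT libraries. Over all tested tiles the means were 84.3% and 82.7% at 30 ppm, and 83.6% and 83.4% at 3 ppm, for KO and WT.

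**Figure D1:**
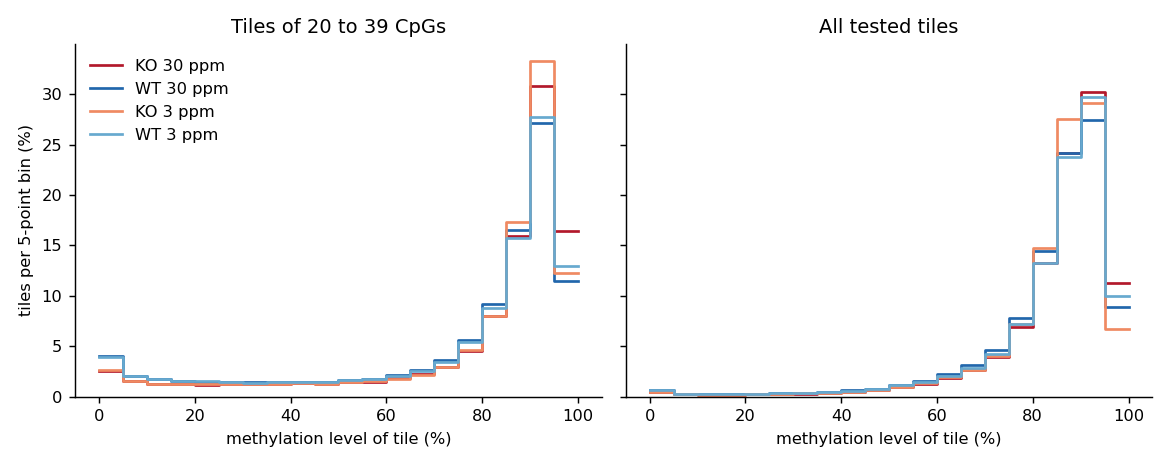
Share of tiles (y axis, percent per 5-point bin) by methylation level (x axis, percent) in each of the 4 libraries, for the 88649 tiles of 20 to 39 CpGs (left) and all 1863069 tested tiles (right). In the bin under 5% the medium tiles hold 4.05% and 3.96% in the WT libraries and 2.56% and 2.64% in the KO libraries, where all tested tiles hold 0.490% to 0.704%.

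KO tiles were higher than WT tiles at both diets. KO minus WT averaged 4.09 points (percentage points of methylation) over the medium tiles at 30 ppm, and 3.22 at 3 ppm, against 1.62 and 0.191 points over all tested tiles. Counting error alone gives these 2 means 95% half-widths of 0.0263 and 0.0223 points, which say nothing of the spread between embryos. They take reads at linked CpGs as separate, and are too narrow where CpGs on the same fragment go together. The medians were 2.38 and 1.47 points, each below its mean. A difference of 10 points or more towards KO was seen in 15.5% of the medium tiles at 30 ppm and 13.0% at 3 ppm, and one of 10 points or more towards WT in 0.742% and 0.555%. Over all tested tiles, which hold fewer reads each, these shares were 8.90% and 5.08% towards KO, and 3.10% and 3.11% towards WT. The mean lay above 0 on 19 of 19 autosomes at each diet, from 3.36 points on chromosome 13 to 4.84 on chromosome 11 at 30 ppm, and from 2.50 on chromosome 3 to 4.27 on chromosome 11 at 3 ppm. Chromosome 10 carries Tet1 and could keep C57BL/6 DNA beside the knockout allele. Without it the means were 4.12 and 3.24 points.

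By a two-sided Fisher's exact test per tile, adjusted by Benjamini-Hochberg over all tested tiles, 6390 medium tiles (7.21%) were called higher in KO at 30 ppm, where a call needed an adjusted p under 0.05 as well as 10 points or more between the levels. The background over all tested tiles was 1.13%. Another 93 medium tiles (0.105%) were called lower, against a background of 0.0487%. At 3 ppm 6790 medium tiles (7.66%) were called higher and 105 (0.118%) lower, where the backgrounds were 1.1% and 0.114%. These tiles were 30.3% and 33.3% of all tiles called higher at 30 and 3 ppm. The shares are not particular to the class. Tiles of 40 or more CpGs were called higher more often, 7.46% at 30 ppm and 10.1% at 3 ppm. Tiles of 10 to 19 CpGs were called less often, 1.92% and 1.76%. The share of medium tiles called lower at 3 ppm was near its background. With libraries thinned to the same mean coverage, 5728 tiles were called higher at 30 ppm and 3834 at 3 ppm, so the order of the 2 counts turned round when the deeper 3 ppm libraries were thinned.

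Medium tiles hold more reads than others, which makes a call easier. When each tile was drawn down to 80 reads in every library, over tiles with at least that many, 1.55% of the 78343 medium tiles left were called higher at 30 ppm, with a background of 0.329%. At 3 ppm the share was 1.21%, with a background of 0.216%. Tiles of 40 or more CpGs drawn down in the same way had higher shares, 2.35% at 30 ppm and 2.27% at 3 ppm. Lower calls among the medium tiles then numbered 1 at 30 ppm (0.00128%, background 0.00531%) and 3 at 3 ppm (0.00383%, background 0.00685%). These are too few to show whether the excess of lower calls at 30 ppm holds at equal reads. The Fisher test also takes every read at every CpG as a separate observation. When the counts of a tile were divided by its number of used CpGs per 400 bases, the average length of the sheared DNA, 0 medium tiles were called in either direction at 30 ppm and 17 were called higher at 3 ppm. The counts of called tiles thus depend on how reads are counted. Dividing leaves far fewer observations per tile, so it cannot show how much of the loss comes from linked CpGs. No background was taken at this setting. limma, fitted to all 4 libraries with genotype and diet in the model and 1 residual degree of freedom, called 0 medium tiles and 0% of all tested tiles. The smallest adjusted p of a medium tile in limma was 0.140, and 0.0519 with the level fitted as a fraction. At an unadjusted p under 0.05 limma listed 13340 medium tiles, or 15%, against 7.75% of all tested tiles. Of the 13340 medium tiles 12304 were higher in KO, and the direction was not counted over all tested tiles. These shares were not matched for reads either.

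The difference grew with CpG number through the class. Tiles of 20 to 24 CpGs had a mean KO minus WT of 3.74 points at 30 ppm and 2.77 at 3 ppm, and tiles of 35 to 39 had 5.30 and 5.02 points. Just outside the class, tiles of 15 to 19 CpGs had 3.07 and 1.97 points, and tiles of 40 to 44 had 5.81 and 5.74. The mean at 3 ppm was highest at 45 to 49 CpGs, with 5.80 points, and in tiles of 75 to 79 the means were 3.91 and 4.11. Over the same bins the mean level of the WT library at 30 ppm fell from 78.7% at 20 to 24 CpGs to 48.4% at 35 to 39 and 7.79% at 75 to 79. At the other end, tiles of 0 to 4 CpGs were 0.544 points higher in KO at 30 ppm and 1.18 points lower at 3 ppm (mean -1.18). The 2 pairs of libraries therefore disagreed in sign in the sparsest tiles, and had like values from 40 CpGs upward.

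**Figure D2:**
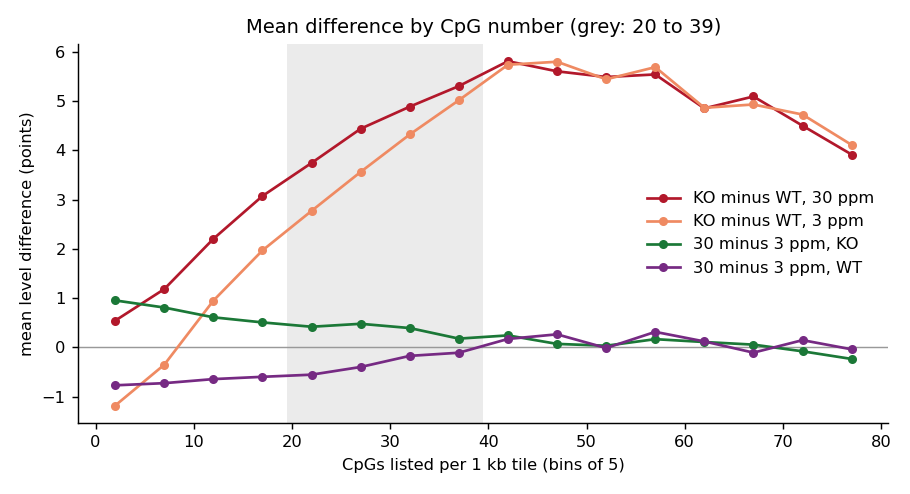
Mean level difference in points (y axis) of the 4 pairs of libraries over tiles grouped by the number of CpGs listed per kb (x axis, bins of 5), with the class of 20 to 39 CpGs in grey. Inside the grey class KO minus WT runs from 3.74 to 5.30 points at 30 ppm and from 2.77 to 5.02 at 3 ppm, while the diet difference lies between 0.180 and 0.480 points in KO and between -0.552 and -0.107 in WT.

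Tiles of intermediate level carried most of the difference. To keep the grouping apart from the difference, a tile was classed for one diet by its mean level in the 2 libraries of the other diet. At 30 ppm the 21510 tiles of 20% to 80% had a mean of 62.3% in KO and 52.0% in WT, 10.3 points apart, and they gave 73.3% of the tiles called higher. The 6908 tiles under 20% had means of 10.9% and 6.45%, 4.48 points apart. The 60231 tiles at 80% and over had means of 91.6% and 89.7%, 1.83 points apart. The same 3 classes differed by 9.05, 4.12 and 0.998 points at 3 ppm. In finer steps the mean difference was highest at 40% to 50% for the 30 ppm pair, at 13.3 points, and at 50% to 60% for the 3 ppm pair, at 11.7 points. The level class of 20% to 80% held 24.3% of the medium tiles and 20.7% of all tested tiles, and over all tested tiles its mean difference at 30 ppm was 3.99 points.

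**Figure D3:**
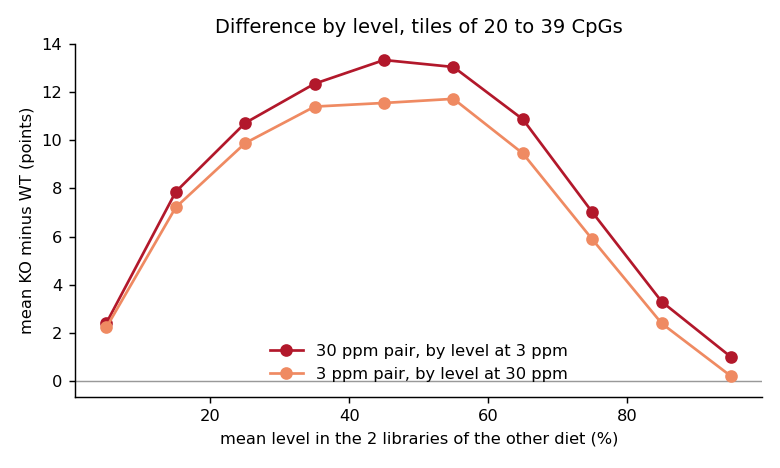
Mean KO minus WT in points (y axis) of the medium tiles against their mean level in the 2 libraries of the other diet (x axis, percent, bins of 10 points). The lines rise from 2.40 and 2.22 points under 10% to a top of 13.3 (30 ppm) and 11.7 points (3 ppm) near 50%, and fall to 0.981 and 0.184 points above 90%.

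Differences at the 2 diets went together across tiles. Across the 88649 medium tiles Pearson's r between KO minus WT at 30 ppm and at 3 ppm was 0.595 and Spearman's rank correlation 0.406, against 0.221 and 0.134 over all tested tiles. These are descriptions across tiles, which are not independent replicates, share library depth, and differ in read number between the sets, and the 2 differences share no library. KO was above WT at both diets in 49.9% of the medium tiles, below at both in 13.0%, and on opposite sides in 36.7%. Over all tested tiles these shares were 30.6%, 22.4% and 46.4%. A gap of 10 points or more towards KO at both diets was seen in 7173 tiles (8.09%), where all tested tiles had 1.94%. Towards WT at both it was seen in 33 (0.0372%), where all tested tiles had 0.235%.

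Of the called tiles, 3168 (3.57% of the members) were higher in KO at both diets. The background was 0.367%, and tiles of 40 or more CpGs had 4.33%. The 3168 tiles made up 49.6% of the medium tiles called higher at 30 ppm and 46.7% of those called at 3 ppm. The 3222 tiles called only at 30 ppm differed by a median of 6.05 points in the 3 ppm pair, where 85.8% lay above 0. For the 3622 called only at 3 ppm, the median in the 30 ppm pair was 9.13 points, and 91.9% lay above 0. Over all members 65.1% lay above 0 at 3 ppm and 71.7% at 30 ppm, so most tiles called at a single diet leaned the same way at the other. In contrast, 3 members (0.00338%) were called lower in KO at both diets, where the background was 0.000537%.

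**Figure D4:**
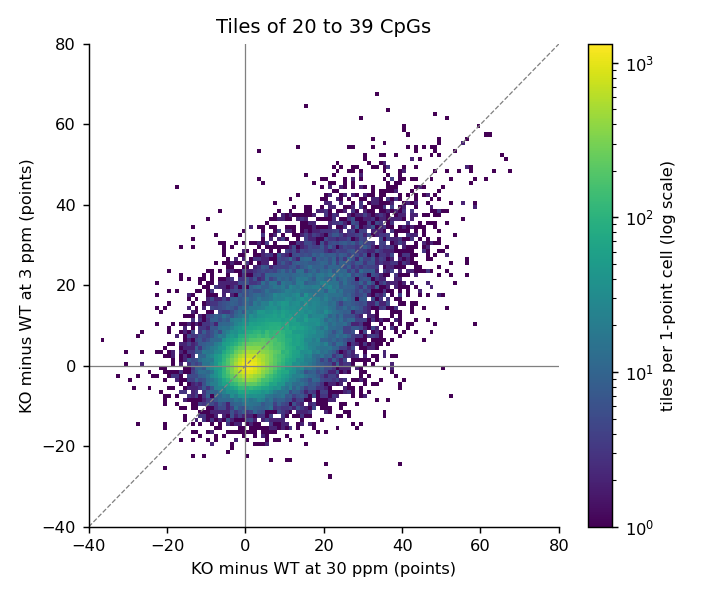
Each medium tile by its KO minus WT difference at 30 ppm (x axis, points) and at 3 ppm (y axis, points), as the number of tiles per cell of 1 point by 1 point on a logarithmic colour scale, with the dashed line marking equal differences. The cloud stretches from 0 into the upper right, where 7173 tiles are 10 points or more higher in KO at both diets, and 33 lie 10 points or more below 0 at both. These are 8.09% and 0.0372% of the medium tiles, where all tested tiles have 1.94% and 0.235%.

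The 3168 tiles were of intermediate level in WT. Their median level was 66.9% in KO against 38.3% in WT at 30 ppm, and 66% in KO against 39.3% in WT at 3 ppm, with median differences of 22.7 and 20.9 points. Within 1 kb of a protein-coding start site lay 28.3% of them, against 13.3% of all members, and 22.1% of them were next to a tile of 40 or more CpGs, against 9.91% of all members. Of them 2901 (91.6%) had no other medium tile higher in KO at both diets directly beside them. Medium tiles are 4.76% of tested tiles, and called neighbours outside the class were not counted. The count therefore does not show whether the changes were scattered. By autosome their share of the members ran from 2.84% on chromosome 17 to 4.07% on chromosome 2, with 3.42% on chromosome 10.

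Place in the genome went with level and with difference. The 11775 members within 1 kb of a protein-coding start site had mean levels of 46.7% in KO against 39.2% in WT at 30 ppm, then 46.4% against 39.3% at 3 ppm. Their mean differences were 7.55 and 7.08 points, the highest of the 4 location classes at both diets. The 28100 members on other exons had differences of 3.50 and 2.82 points, the 22941 in introns 3.91 and 2.72, and the 25833 between genes 3.32 and 2.33. The share higher in KO at both diets was 7.62% near start sites, 2.71% on exons, 3.09% in introns and 3.10% between genes. Near start sites 16.4% of members were called higher at 3 ppm and 13.4% at 30 ppm. The mean was above 0 in each of the 4 classes at both diets.

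Level and difference also went with dense neighbours. The 8788 members next to a tile of 40 or more CpGs, the position of an island shore, had mean levels of 42.7% in KO against 35.3% in WT at 30 ppm and differences of 7.38 and 6.92 points at 30 and 3 ppm. The 7587 members 2 to 5 tiles away had 4.67 and 4.00 points, and the 72274 farther away 3.63 and 2.69. Near start sites the difference was of like size whether or not a dense tile lay beside, at 7.89 points next to one and 7.27 points farther than 5 tiles at 30 ppm. Between genes it was 3.96 points next to a dense tile and 3.24 points farther away. On exons it was 6.76 points next to a dense tile and 3.22 farther away, and in introns 7.29 and 3.68.

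Repeats stood apart from the rest. In the 11711 members that were 50% or more repeat-masked, mean levels were 91.3% in KO against 90.8% in WT at 30 ppm, then 90.7% against 91.2% at 3 ppm. KO and WT means differed by 0.421 points at 30 ppm and by -0.552 at 3 ppm, and 24 of them (0.205%) were higher in KO at both diets. The 74204 members with a smaller share of repeats differed by 4.66 and 3.79 points, and the 2734 with none by 4.46 and 3.83. Repeat-rich members, at levels near the top of the scale, thus showed little difference on average, of opposite sign at the 2 diets.

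The authors' lists of differentially methylated regions (DMRs), called between the same single libraries, fell often on these tiles. Of 4359 autosomal regions listed as higher in KO at 30 ppm, 2304 (52.9%) touched a member, and of 4362 at 3 ppm, 2388 (54.7%) did. Regions touched 2.75% and 2.91% of the members, and 0.297% and 0.300% of all tested tiles. As they come from the same reads, these overlaps are not independent evidence of the differences above.

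The 10 tiles described next had the largest value of the smaller of their 2 differences, at most 1 per gene, among the 2834 tiles that were higher in KO at both diets and held at least 100 reads in each library. They were picked for size, so their values describe the top of the range. The reads behind each level ran from 120 to 576, and the 95% Wilson intervals cover counting error only and take reads at linked CpGs as separate. Adjusted p-values of the 10, by Fisher's exact test, were at most 3.17e-15 at each diet. With counts divided by used CpGs per 400 bases, none of the 10 was called at 30 ppm, and Trim58, Rasa2, Scin, Srgn and Dido1 were called at 3 ppm. All 10 lay on a region of both lists of DMRs higher in KO.

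Trim58 encodes a ubiquitin ligase known from late red cell development. Its tile (chr11:58640001-58641000) spans the start site, with UTR and coding exon. The level was 71.6% in KO against 12.0% in WT at 30 ppm, and 68.6% in KO against 9.54% in WT at 3 ppm. KO was higher by 59.6 and 59.1 points, at 26 of 27 used CpGs at both diets, and at 7 CpGs both KO libraries read 80% or more while both WT libraries read 20% or less. Both KO intervals (64.2% to 78% and 63.8% to 73.1%) lay far above the WT intervals (7.98% to 17.6% and 6.64% to 13.5%).

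Rasa2, a GTPase-activating protein of Ras, holds a tile on a coding exon (chr9:96544001-96545000). It read 88.7% in KO against 27.2% in WT at 30 ppm, and 89.3% in KO against 32.2% in WT at 3 ppm, which are differences of 61.5 and 57.1 points. At 13 of its 19 used CpGs both KO libraries were at 80% or more and both WT libraries at 20% or less. The 17 used CpGs inside the sequence shown above were all higher in KO at both diets. The other 2 used CpGs, near the far end of the tile, were at 84.0% or more in every library, so the difference covered one stretch of the tile. With a minimum of 10 reads per CpG the tile's differences were 37.6 and 27.5 points, still called at both diets.

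Nphs1 encodes nephrin of the kidney filter. Its tile (chr7:30460001-30461000), 276 bases from a start site and on UTR and coding exon, read 79.3% in KO against 23.4% in WT at 30 ppm, then 79.8% against 24.1% at 3 ppm. All 20 used CpGs were higher in KO at both diets. The Tmem233 tile (chr5:116082001-116083000), on a coding exon 244 bases from a start site, read 87.5% in KO against 20.9% in WT at 30 ppm, then 72.6% against 20.6% at 3 ppm. WT levels of the Tmem233 tile were alike at both diets and the KO levels 14.9 points apart, with an adjusted p of 0.267 by Fisher's exact test for the latter.

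The Dlgap3 tile (chr4:127223001-127224000) lies in an intron of a postsynaptic scaffold gene and read 80.3% in KO against 24% in WT at 30 ppm, then 77.5% against 28.4% at 3 ppm. Scin, which encodes an actin-severing protein, had 61.5% and 13.0% at 30 ppm, and 62.2% and 13.4% at 3 ppm, in a tile 183 bases from its start site (chr12:40133001-40134000). Gata2, a transcription factor of blood and neuron development, had 67.2% and 15.2%, then 68.0% and 19.5%, on an exon 6667 bases from the nearest start site of the gene (chr6:88205001-88206000). In these 3 tiles every used CpG, 17, 24 and 15 of them, was higher in KO at both diets.

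Slc35f3, a solute carrier gene, had 74.7% in KO against 17.6% in WT at 30 ppm, then 75.1% against 26.8% at 3 ppm, in an intron (chr8:126345001-126346000). Srgn, which encodes the proteoglycan serglycin, had 68.5% and 20.3%, then 68.6% and 14.1%, in a tile 63 bases from its start site (chr10:62508001-62509000). It lies near Tet1 on chromosome 10, where DNA of C57BL/6 may have stayed with the knockout allele, so strain and genotype cannot be told apart there. Dido1, a gene of a chromatin-binding protein, had 69.0% and 21.1%, then 87.8% and 35.5%, on its coding exon and UTR (chr2:180659001-180660000). The Dido1 tile is the sole one of the 10 that was also called by diet, and both genotypes were lower at 30 ppm.

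**Figure D5:**
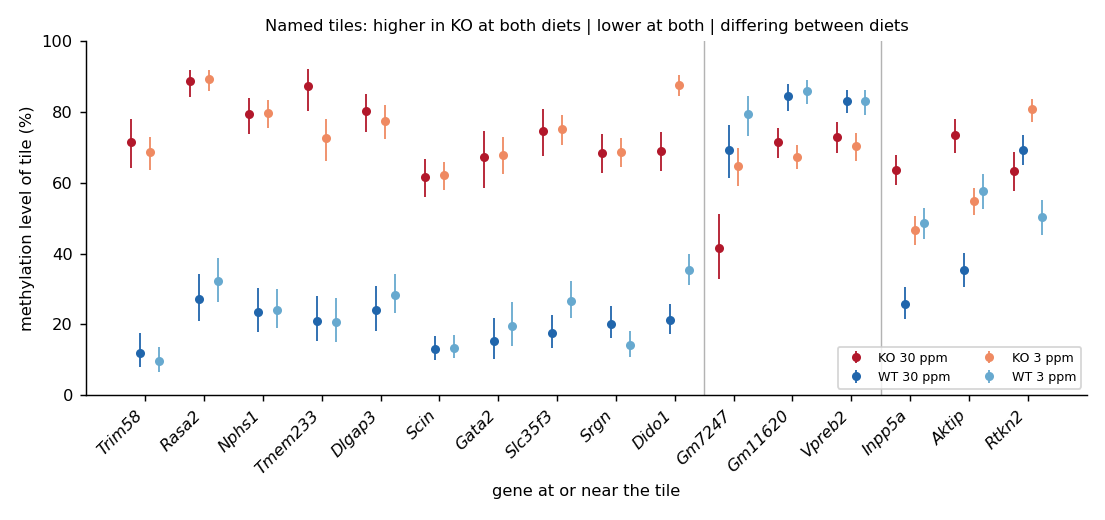
Methylation level (y axis, percent) of the named tiles in the 4 libraries, with 95% Wilson intervals as bars. The 10 tiles on the left read 61.5% to 89.3% in KO and 9.54% to 35.5% in WT, the 3 in the middle have KO below WT at each diet, and the 3 on the right have KO and WT at most 6.00 points apart at one diet and 30.5 to 38.3 points apart at the other.

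Only 3 tiles were called lower in KO at both diets, and all are named. The Gm7247 tile (chr14:51434001-51435000), in an intron of a predicted gene, read 41.7% in KO against 69.4% in WT at 30 ppm, then 64.8% against 79.5% at 3 ppm. A dense tile lay directly beside it. The Gm11620 tile (chr11:105164001-105165000), on an exon of a predicted gene, read 71.4% and 84.5%, then 67.4% and 86.0%. It was 54% repeat-masked and also lay beside a dense tile. The third tile (chr16:18012001-18013000) lies between genes, 31573 bases from the start site of Vpreb2, a gene of the surrogate light chain of B cell precursors, and was 66% repeat-masked. It read 73.0% and 83.1%, then 70.4% and 83%. Differences here were 10.2 to 27.7 points in size, well short of the 10 tiles above. With a minimum of 10 reads per CpG, none of the 3 was called at 30 ppm, with differences of -15.6 points at Gm7247, -10.1 at Gm11620 and -10.2 near Vpreb2. The Gm7247 tile was then not called at 3 ppm either, with -3.41 points.

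Diet differences were far smaller than genotype differences and went opposite ways in the 2 genotypes. The mean of 30 minus 3 ppm over the medium tiles was 0.418 points in KO and -0.456 points in WT, where all tested tiles had 0.743 and -0.684. It was above 0 on 19 of 19 autosomes in KO, from 0.254 to 0.595 points, and on 0 of 19 in WT, from -0.639 to -0.282. No test of this difference was made, as it rests on 1 library a group. In the KO pair 178 tiles (0.201%) were called higher and 112 (0.126%) lower at 30 ppm, with backgrounds of 0.043% and 0.0253%. In the WT pair 54 tiles (0.0609%) were higher and 181 (0.204%) lower, with backgrounds of 0.00886% and 0.0381%. At 80 reads per tile 0 of 78343 members were called higher and 0 lower in the KO pair, where 9 and 6 of 1035914 tiles were. In the WT pair 1 and 0 members were called, where 1 and 0 of all tiles were. With so few calls, equal reads cannot show whether the excess over the background holds. With counts divided by used CpGs per 400 bases, 0 medium tiles were called by diet in either genotype.

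Diet calls in the 2 genotypes were compared next. Across the medium tiles r between the diet difference in KO and in WT was -0.0325. Just 1 tile was higher at 30 ppm in both genotypes and 1 was lower, while 10 were called in opposite directions. Over all tested tiles r was -0.0141, with 2 tiles higher in both, 1 lower in both and 24 called in opposite directions. The tile at Gm13340 (chr2:22589001-22590000), on an exon of this predicted gene that overlaps Myo3a, read 60.2% in KO against 68.4% in WT at 30 ppm, then 39% against 52.4% at 3 ppm. The differences by diet were 21.3 points in KO and 15.9 in WT. The Gm13340 tile held 654 and 471 reads in KO and WT at 30 ppm, then 1108 and 593 at 3 ppm. These counts lie far above the median member tile of each library, and how the extra reads bear on its level was not tested. The shared lower tile was that of Dido1, with -18.8 and -14.4 points.

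KO minus WT differed between the diets at 331 medium tiles (0.373%) by a Wald test of the 2 log odds ratios at an adjusted p under 0.05, with a background of 0.0692%. The difference was larger at 30 ppm in 254 of them and larger at 3 ppm in 77. This split was not counted over all tested tiles. Their mean KO minus WT was larger at 30 ppm too, with 1.62 points against 0.191 at 3 ppm. In 250 of the 331 tiles the 2 differences had opposite signs. Tiles larger at 30 ppm had medians of 19.17 points at 30 ppm and -4.43 at 3 ppm, and those larger at 3 ppm had -5.20 and 18.1. The Wald test too counts reads at linked CpGs apart, and 0 medium tiles passed it with the divided counts and 2 at 80 reads per tile. No background was taken at these 2 settings. The excess over the background with all reads is not matched for reads, of which medium tiles hold more.

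The next 3 tiles had the smallest p in that test among tiles with at least 100 reads in each library. They were taken from tiles called higher or lower in KO at 1 diet or more, so a gap at 1 diet was required. At each of the 3, KO and WT were close at the other diet. Inpp5a encodes an inositol phosphatase, and its intronic tile (chr7:139498001-139499000) read 63.7% in KO against 25.9% in WT at 30 ppm, but 46.6% and 48.5% at 3 ppm. In the tile within Aktip (chr8:91171001-91172000), a gene of vesicle transport, on an exon of the predicted gene Gm45666, the levels were 73.7% and 35.3% at 30 ppm, but 54.8% and 57.6% at 3 ppm. Rtkn2 showed the reverse in an intron (chr10:68044001-68045000), with 63.4% and 69.4% at 30 ppm, but 80.8% and 50.3% at 3 ppm. This tile too lies on the chromosome of Tet1, and strain and genotype cannot be told apart there if C57BL/6 DNA reaches it. The adjusted p of the difference between diets, by the Wald test, was 1.26e-12, 5.17e-11 and 6.74e-10.

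Gene lists were taken over the members within 1 kb of a start site of their genes, where the median KO minus WT of all 11775 such tiles was 5.59 points at 30 ppm and 4.96 at 3 ppm. Of all such tiles, the background for the counts of each list, 13.4% were called higher in KO at 30 ppm, 16.4% at 3 ppm and 7.62% at both, and 0.153% and 0.0934% were called lower. This background was not matched to a list by level, which went with calls. The lists hold 26 to 87 tiles, so a few tiles set each share. Synapse and ion channel genes, which build neuronal signalling, had 87 tiles at 61 of 81 genes, with medians of 9.13 and 8.52 points. Of these tiles 19 were called higher at 30 ppm (21.8%), 24 at 3 ppm (27.6%) and 10 at both (11.49%), each above that background, and 0 lower. Cacna1e, a calcium channel gene, read 63.9% in KO against 26.5% in WT at 30 ppm, then 60.9% against 35.4% at 3 ppm. At the other end Kcnd2, a potassium channel gene, read 86.3% and 92.7%, then 91.4% and 95.2%.

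Axon guidance genes had 58 tiles at 39 genes, with medians of 6.60 and 6.43 points and 4, 10 and 2 tiles called higher at 30 ppm, at 3 ppm and at both. These are 6.90%, 17.2% and 3.45%, near the background of start-site tiles at 3 ppm and below it otherwise. Efnb3, an ephrin ligand gene, read 38.6% in KO against 15.8% in WT at 30 ppm, then 36.3% against 14.3% at 3 ppm, in a tile that overlaps Wrap53. Sema4g, a semaphorin gene, read 44.7% and 17.8%, then 42.1% and 25.5%. Plxna1, a semaphorin receptor gene, read 92.1% to 98.2% in the 4 libraries and had differences of -4.13 and -1.55 points.

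Brain patterning transcription factors had mostly low levels. Their 66 tiles at 42 genes had median levels of 3.40% in KO against 2.12% in WT at 30 ppm, then 3.06% against 2.13% at 3 ppm, with median differences of 1.09 and 0.919 points. Of these tiles 4 were called higher at 30 ppm (6.06%), 3 at 3 ppm (4.55%) and 3 at both (4.55%), and 0 lower. Nkx6-2 and Olig1, factors of the ventral neural tube and of oligodendrocytes, had the highest mean differences. Nkx6-2 read 30.8% in KO against 12.0% in WT at 30 ppm, then 29.9% against 10% at 3 ppm, while Olig1 read 35.3% and 15%, then 39.3% and 21.1%. Lhx9 stayed between 1.76% and 5.43% in all 4 libraries. Germline genes, which are silenced by methylation in somatic tissue, were at the opposite end, with median levels from 86.7% to 89.7% over 49 tiles and median differences of 1.74 and 0.927 points. Low tiles at patterning genes beside high tiles at germline genes were thus seen in all 4 libraries.

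In the germline list 0 tiles were called higher at 30 ppm and 1 at 3 ppm, with 0 at both, below the background. The tiles of that background had a median WT level of 33.0% at 30 ppm, against 86.7% in this list. Piwil1, of the piRNA pathway, read 86.1% in KO against 76.4% in WT at 30 ppm, then 83.9% against 71% at 3 ppm. Dppa3, a germ cell and early embryo gene, read 79.5% and 62.6% at 30 ppm and 61.3% and 59.0% at 3 ppm. Zfp42, a pluripotency gene, read 94.3% and 97.4%, then 89.4% and 97.3%, so KO was the lower at each diet.

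Folate and methyl cycle genes had 26 tiles at 21 of 42 genes, with medians of 4.21 and 4.67 points, 5 called higher at 30 ppm, 2 at 3 ppm and 2 at both. These are 19.23%, 7.69% and 7.69%, beside a background of 13.4%, 16.4% and 7.62%. With 26 tiles these shares turn on a few tiles, and neither side of the background is read from them. Aldh1l2, a mitochondrial enzyme of the folate pathway, read 54.2% in KO against 21.4% in WT at 30 ppm, then 52.2% against 30.2% at 3 ppm, across its start site. Gcsh, of the glycine cleavage system, read 43.3% and 17.7%, then 38.6% and 21.6%. Slc46a1, the proton-coupled folate transporter, had a coding exon tile 304 bases from its start site that read 57.8% in KO against 73.6% in WT at 30 ppm, then 67.8% against 66.5% at 3 ppm. It was the lowest of the list and was not called in any comparison.

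Muscle and heart genes, known from other tissues, had 55 tiles with medians of 1.52 and 4.20 points, and 6, 10 and 5 tiles called higher at 30 ppm, at 3 ppm and at both, which are 10.9%, 18.2% and 9.09%, near the background. Acta1, skeletal muscle actin, read 76.9% in KO against 39.7% in WT at 30 ppm, then 69.8% against 43.1% at 3 ppm, and Gata5, a heart transcription factor, read 73.6% and 51.1%, then 67.8% and 35.5%. Casq1, a calcium store protein of muscle, had differences of -1.59 and -3.77 points. Housekeeping genes had 32 tiles with medians of 5.22 and 2.14 points and 1 tile (3.13%) called higher at each diet, below the background. B2m, the light chain of MHC class I, read 44.9% and 29.3%, then 46.2% and 31.7%, and Rer1, of the early secretory pathway, differed by 10.5 and 8.91 points. Rpl7, a ribosomal protein gene, differed by 5.07 points at 30 ppm and -10.3 at 3 ppm.

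Imprinted genes with a germline differentially methylated region, where one parental copy is methylated, had 32 tiles with medians of 7.02 and 4.94 points. Of these, 5 were called higher and 3 lower at 30 ppm, 5 higher and 0 lower at 3 ppm, and 3 higher at both. The share higher, 15.6% at each diet and 9.38% at both, was near the background, and the share lower at 30 ppm, 9.38%, was above it. The Gnas tile, on an exon of Nespas, read 68.0% in KO against 52.3% in WT at 30 ppm, then 64.2% against 43.2% at 3 ppm. Grb10, a growth regulator, read 37.5% and 13.5%, then 32.5% and 20.7%. Meg3, a maternally expressed RNA, read 41.0% and 59.7% at 30 ppm and 41.3% and 44.0% at 3 ppm, so WT at 30 ppm stood apart from the other libraries. No list was tested, and the counts describe these libraries.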

How the data were processed

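WGBS libraries of 4 embryonic mouse brains were analysed, 1 per group, with groups taken from the labels. In the methods of the study, the authors trimmed reads with Trim Galore 0.6.10, aligned them with Bismark 0.23.1 to GRCm38.p6, removed duplicates and merged both strands. The authors deposited, for each CpG, the read count and the fraction of methylated reads, and these give methylated reads by multiplication and rounding. Reads of CpGs covered 5 times or more in every library were summed over 1 kb tiles, and tiles with at least 3 such CpGs were tested.

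Each of 4 pairs of libraries was compared per tile by a two-sided Fisher's exact test (Python 3.11.15, scipy 1.17.1) with Benjamini-Hochberg adjustment over all 1863069 tested tiles. Calls needed an adjusted p under 0.05 and 10 points or more between the levels. The change of KO minus WT between diets was tested by a Wald test of log odds ratios, after adding 0.5 to every count. limma 3.58.1 (R 4.3.3) was fitted to log2((methylated + 1) / (unmethylated + 1)) with genotype and diet, which leaves 1 residual degree of freedom. The code was tested on simulated data. Locations and sequences come from the GRCm38.p6 annotation and genome, and repeats from its soft-masked bases. All libraries shared 1 sequencing lane, and no other batch is stated.

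Named tiles had at least 100 reads in each library, with at most 1 per gene: the 10 and up to 4 called higher or lower in KO at both diets, ranked by the smaller difference, up to 4 called the same way by diet in both genotypes, and the 3 with the smallest p between diets. The last 3 were taken from tiles called between KO and WT at 1 diet or more. For each gene list the 2 highest and the lowest tile by mean KO minus WT were named. One of these tiles is not reported here. Tiles, lists and tests were chosen with earlier results of these data known. Columns of the authors' DMR lists that hold their own statistics were not used, only positions and direction. Sex chromosomes were left out. Alternatives were a minimum of 10 reads per CpG, libraries thinned to the same mean coverage, the mean over CpGs, counts divided by used CpGs per 400 bases, a grid shifted by 500 bases, no chromosome 10, and a difference of at least 20 points. Drawing each tile down to 80 reads was added after seeing the data.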

Additional observations from a re-analysis of the deposited data

Results flagged for a closer look

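KO minus WT differed between the diets, by the Wald test on reads, at 331 medium tiles (0.373%, with a background of 0.0692%). The 3 tiles named are those with the smallest p among tiles of at least 100 reads that were called between KO and WT. Other tiles had larger changes. KO minus WT was 39.8 points larger at 30 than at 3 ppm at the Inpp5a tile and 41.2 points larger at the Aktip tile. At the Rtkn2 tile the change was -36.5 points, with the larger difference at 3 ppm. At each of the 3 the level of 1 genotype rose and that of the other fell with diet. In the Inpp5a tile the level at 30 minus 3 ppm was 17.1 points in KO and -22.7 in WT, in the Aktip tile 18.9 and -22.3, and in the Rtkn2 tile -17.4 and 19.16. As there is 1 embryo per group, a difference of a single embryo cannot be told apart from a change with diet.

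The mean 30 minus 3 ppm difference over the medium tiles lay above 0 in KO (0.418 points) and below 0 in WT (-0.456 points). Over all tested tiles these means were larger in size, 0.743 points in KO and -0.684 in WT, so the pattern is not particular to medium tiles. That the KO and WT means differ was not tested, since each rests on 1 pair of embryos. The library with the most reads, KO at 3 ppm, was one of the KO pair, and its part in the difference is described by the thinned value given with the other alternatives.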

How the results depend on the processing

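Leaving out a replicate was not possible, as each group has 1 library. No paired analysis was possible because the groups compared share fewer than 2 replicate numbers. Of the means over tiles and counts of calls recomputed, 53 moved and 29 did not, and none reversed. A mean moved if it changed by more than its counting half-width, which takes linked CpGs as separate. A count moved if it changed by more than 1.5 times. In means of tile differences the order below is KO minus WT at 30 ppm, at 3 ppm, then 30 minus 3 ppm in KO and in WT. With at least 10 reads per CpG, means were 3.64, 2.54 and, in WT by diet, -0.703 points. Calls higher and lower in KO then numbered 2983 and 42 at 30 ppm and 2807 and 57 at 3 ppm, those by diet 65 and 45 in KO and 10 and 105 in WT, and those between diets 149. With libraries thinned to the same mean coverage, the mean was 3.15 points at 3 ppm and 0.504 by diet in KO. Calls were 5728 and 81 at 30 ppm, 3834 and 51 at 3 ppm, 76 and 34 by diet in KO, 27 and 102 in WT, and 141 between diets. Averaging CpGs gave 4.19, 3.28 and, by diet in WT, -0.489 points. A shifted grid gave 3.26 points at 3 ppm and -0.420 by diet in WT, and leaving out chromosome 10 gave 3.24 points at 3 ppm. With counts divided by used CpGs per 400 bases, 17 tiles were called higher and 0 lower in KO at 3 ppm, and 0 in every other comparison, that between diets included. With a minimum of 20 points, calls higher and lower were 3126 and 11 at 30 ppm, 2905 and 6 at 3 ppm, 40 and 13 by diet in KO, and 16 and 40 in WT. At 80 reads per tile, chosen after seeing the data, they were 1217 and 1, 949 and 3, 0 and 0, and 1 and 0, with 2 between diets. limma called 0 tiles in each of its settings, with 13340 members at an unadjusted p under 0.05 in the setting reported. Of single differences at named tiles, 93 kept their side of the threshold and 29 lost it, 24 of these with the divided counts. No called difference changed sign. The tiles at Trim58, Gata2 and Slc35f3 had too few CpGs for a value at 10 reads. The Inpp5a tile's difference at 3 ppm, not called, went from -1.96 to 4.54 points with the mean over CpGs. The divided counts and 80 reads test fewer observations by construction. The cause of the other changes was not tested. Depth limits calls to large differences, and the spread between embryos could not be measured.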
